A study of Mus musculus with 4 samples.

Results

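Translation initiation and elongation factors were described in the skeletal muscle of Crhr2 knockout mice. The genes were chosen by name: every probe set whose platform annotation gave a single gene symbol beginning with Eif or Eef and a digit was taken. That rule found 49 of the 8251 genes with such a probe set, read by 66 of the 12422 probe sets tested. The rule used no measured values, but it was set with earlier results of these data known. The arrays came from 2 pools of Crhr2-/- (KO) muscle and 2 pools of Crhr2+/+ (WT) muscle, the pools of a genotype being its replicates 1 and 2. Each pool held the RNA of 2 mice, out of 4 mice per genotype, so the spread between arrays is that between pools and not between single animals. All mice were untreated male littermates aged 6.5 months on a mixed C57BL/6 and 129 background, and the tissue was gastrocnemius with soleus. The genotypes were read from the sample titles, because the genotype field of the labels holds the tissue and the tissue field the genotype. The sources used here do not describe how the Crhr2 allele was made. Crhr2 encodes the type 2 receptor for corticotropin-releasing factor and the urocortins. The receptor couples to cAMP production.

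Protein synthesis starts when the small ribosomal subunit, carrying initiator tRNA bound to eIF2, is recruited to the capped end of an mRNA by the eIF4F complex and scans to a start codon. Elongation then runs on eEF1A, which brings aminoacyl-tRNA to the ribosome, and eEF2, which moves the ribosome along. In muscle this machinery is switched mainly through phosphorylation of eIF2, of the 4E-BP inhibitors and of eEF2, none of which an mRNA array measures. Muscle is also known for the isoform of eEF1A that it makes as an adult: eEF1A2 takes the place of the ubiquitous eEF1A1.

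No translation factor passed the test for a difference between KO and WT muscle. With limma and Benjamini-Hochberg adjustment over all probe sets, 0 of the 66 had an adjusted p under 0.05, and the smallest adjusted p among them was 0.803. Over all probe sets 0 passed as well, a background of 0% called. Without adjustment, 2 of the 66 had a p under 0.05, which is 3.03%, against 5.43% of all probe sets. Both read higher in KO, as 2.57% of all probe sets did at that threshold. With 1 probe set per gene, 1 of the 49 genes had such a p and was higher in KO, against 5.39% of all genes in either direction and 2.41% higher. The KO arrays stood apart from the WT arrays for 18 of the 66 (27.3%), 10 with KO higher and 8 with KO lower, whereas 34.6% of all probe sets were separated in this way. Both shares lay below the background, so neither count is a result about these genes. Higher without overlap were 17.0% and lower 17.6% of all probe sets. An exact two-sided permutation test of any single value could not go below p = 0.333 with 2 arrays against 2.

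The factors as a group sat close to no difference. Their median log2 fold change, KO minus WT on the log2(intensity + 14) scale, was -0.03, with quartiles of -0.16 and 0.10, and that of all probe sets was 0.00013. The median was 0.02 without KO replicate 2 and 0.0024 without WT replicate 2. Of the 66 probe sets, 37 read lower and 29 higher in KO (56.1% lower, against 50% of all probe sets). Taking for each gene the probe set with the highest mean, 27 of 49 genes read lower in KO, where 50.8% of all 8251 genes did. A difference of at least 1.5-fold on this scale was seen for 5 of the 66, against 11.1% of all probe sets. Over genes it was seen for 3 of 49, against 9.7% of all genes. Of the 45 factor probe sets brighter than the median probe set, only 1 differed that much, Eef1b2, which is 2.22% against 4.31% of all probe sets that bright. None of the 45 had an unadjusted p under 0.05 (limma), whereas 5.26% of all bright probe sets did.

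**Figure D1:**
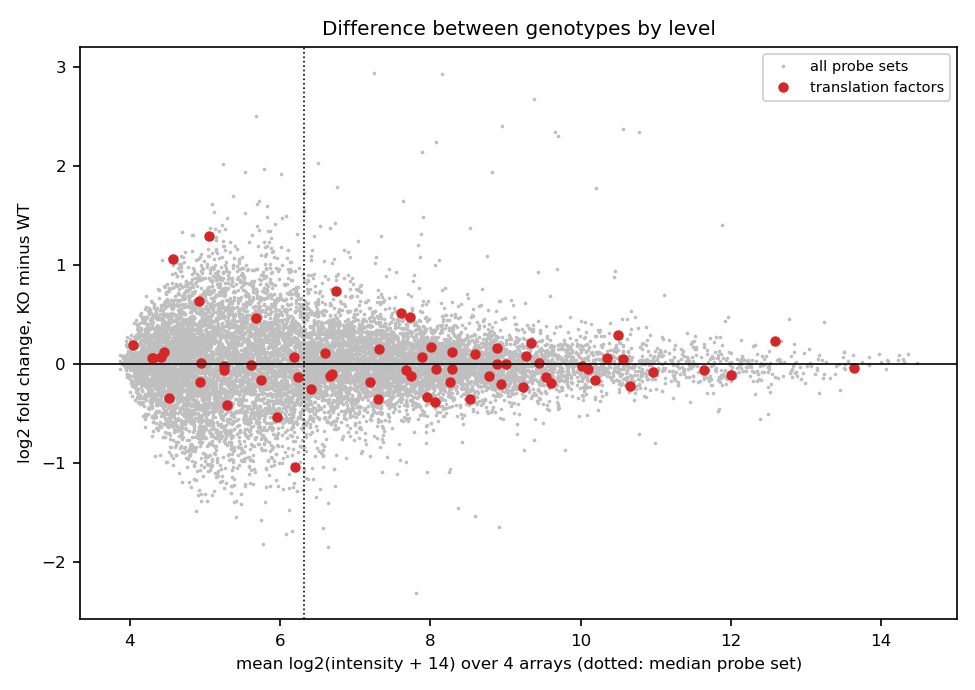
Log2 fold change (KO minus WT) against the mean log2(intensity + 14) over the 4 arrays for all 12422 probe sets (grey) and the 66 translation factor probe sets (red), with the median probe set as a dotted line. The factors reach from the dimmest to the brightest probe sets, and those furthest from 0, such as Eif4enif1 at 1.29, lie left of the dotted line.

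The precision of these arrays sets what a missing call can mean. The 95% interval of the fold change, from the limma fit, lay inside a 2-fold difference in either direction for 49 of the 66 factor probe sets (74.2%), against 59.6% of all probe sets. For the 45 brighter ones it did so for 40 (88.9%, against 84.5% of all brighter probe sets). For the 21 at or below the median probe set it did so for 9. The constant added before taking logs shrinks differences of dim probe sets, so there the interval does not bound the ratio of intensities. Eef1g, for example, had a KO mean at 254% of its WT mean, yet its interval ran from -0.18 to 0.57. The shares for the 66 and for all probe sets include such dim sets, so they are not a measure of precision alone. On bright factors the KO pools differed from each other by a median of 0.19 on the log2 scale and the WT pools by 0.15. The genotype means, each over 2 arrays, differed by a median of 0.12.

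**Figure D2:**
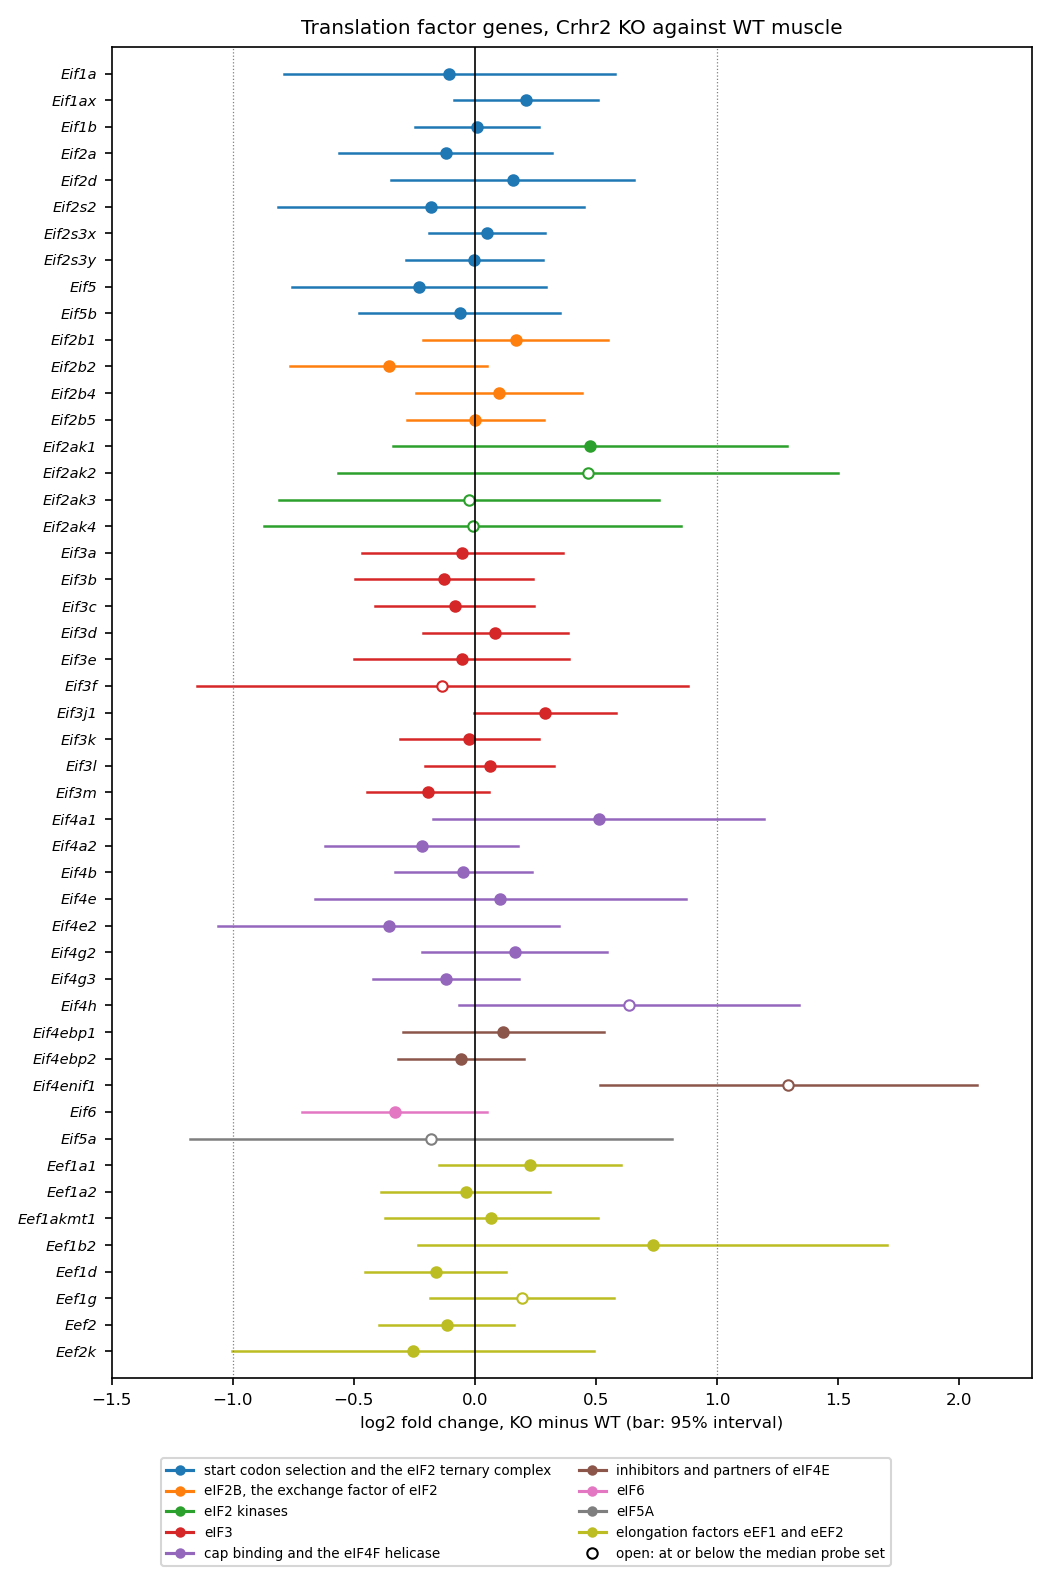
Log2 fold change (KO minus WT) of the 49 factor genes with its 95% interval, 1 probe set per gene, coloured by role. Dotted lines mark 2-fold differences, and open circles mark genes at or below the median probe set. All intervals but that of Eif4enif1, at 0.52 to 2.07, reach across 0.

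Some features of the whole arrays touch these values. The 12 muscle fibre markers summed to 107530 and 117867 intensity units in KO and 111047 and 110820 in WT, so the labelled tissue was borne out in each array. Markers of exocrine pancreas (13 of 20 measured) summed to 17215 and 5113 in KO, against 2233 and 2152 in WT, and all 13 read higher in KO. Liver markers (12 of 16 measured) summed to 1187 and 1114 in KO, against 2460 and 3088 in WT. Of these, 1 read higher and 11 lower in KO. Blood markers summed to 12316 and 9931 in KO, against 9407 and 7533 in WT, with 3 genes higher and 1 lower. Macrophage markers summed to 1020.2 and 1031 in KO, against 1072 and 1049 in WT, but 4 of these genes read higher in KO and 4 lower. The sums of lymphocyte and adipocyte markers overlapped between genotypes. No value in the table was 0. Ratios of the 3' to the 5' control signal were 0.729 and 0.866 in KO and 0.624 and 0.686 in WT for actin. For Gapdh they were 1.04 and 0.988 in KO, against 0.889 and 0.914 in WT. The part of these markers and ratios in the values below was not tested. In bulk RNA, fewer cells of a type and less RNA per cell cannot be told apart.

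The targeted gene itself separated the genotypes on its brighter probe set. Crhr2 read 100.4 and 75.1 in KO and 154 and 192 in WT, without passing adjustment (limma adjusted p = 0.803). Its dimmer probe set, at 36.7 and 22.7 in KO against 18.8 and 45.3 in WT, overlapped between genotypes. Whether either set reads exons that the allele lacks is not known here, so the check of the labels is limited.

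A feature of sequence that the choice by name did not use was looked for in the promoters. RefSeq start windows (GRCm38.p6, 250 bases before to 50 after an annotated start) were matched for 41 of the 49 genes. Of these, 10 genes (24.4%) held the E-box letters CACGTG, which bind MYC and related factors, against 8.09% of all 27025 genes with a window. By windows, 12 of 56 held it, against 7.15% of all windows. That background holds every gene with a window, not only genes on the array or expressed in muscle. It was not matched for base composition, so the gap cannot be ascribed to translation factors as such. The cAMP response element TGACGTCA was found in the window of 1 of the 41 genes, Eef2 (2.44%, against 2.03% of all genes). The C/EBP-ATF letters TGATGNAA, where N is any base, were found for Eef2k and Eif2s3x (4.88%, against 4.51%). Both strands were searched, and no match of 1 motif overlapped a match of another. A match is only a run of letters in this window and not evidence of binding. The 10 genes were Eef2, Eef2k, Eif1b, Eif3a, Eif3f, Eif3k, Eif4a1, Eif4e, Eif4h and Eif5a. Their median log2 fold change was -0.04 (6 lower and 4 higher in KO), and that of the 31 others with a window was -0.0098 (17 lower and 14 higher). The windows below are shown because they belong to the cap-binding protein, its helicase and helper and the translocation factor. Capitals mark the motif, and each is written 5′ to 3′ on the gene's strand.
Eif4e, distal E-box, chr3:138527024-138527063, plus strand: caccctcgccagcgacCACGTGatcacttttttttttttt
Eif4e, proximal E-box, chr3:138527188-138527227, plus strand: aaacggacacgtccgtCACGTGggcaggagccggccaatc
Eif4a1, E-box, chr11:69672589-69672628, minus strand: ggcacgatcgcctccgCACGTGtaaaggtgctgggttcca
Eif4h, E-box, chr5:134639482-134639521, minus strand: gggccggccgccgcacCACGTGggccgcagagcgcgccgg
Eef2, E-box, chr10:81176572-81176611, plus strand: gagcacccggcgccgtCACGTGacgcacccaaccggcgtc
Eef2, cAMP response element, chr10:81176611-81176650, plus strand: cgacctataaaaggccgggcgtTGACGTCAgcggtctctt
The first base of the Eif4e boxes lay at -228 and -64 from the annotated start and that of the Eef2 box at -43. The cAMP response element of Eef2 began at position 3 of the annotated transcript.

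Start codon selection rests on eIF2, which carries the initiator tRNA, and on the factors that scan with it. Of 10 such genes, 4 read higher and 6 lower in KO, 2 of them (Eif1ax and Eif2d, both higher) without overlap between genotypes, where 34.6% of all genes did not overlap, and 0 passed (limma). The median log2 fold change was -0.03. The gamma subunit of eIF2, which binds GTP and the tRNA, is made from the X-linked Eif2s3x and the Y-linked Eif2s3y. Eif2s3x read 1521 and 1535 in KO and 1422 and 1532 in WT (log2 fold change 0.05 ± 0.10, SE). Eif2s3y read 474 and 449 in KO, against 462 and 462 in WT (-0.0027 ± 0.12). Neither gene separated the genotypes, and the copies are so alike that probes may share signal. Eif1b, a paralog of the start-site guard eIF1, differed by 0.01 (95% interval -0.25 to 0.26). The eIF2 GTPase activator Eif5 was high in 1 WT pool: it read 566 and 519 in KO and 507 and 803 in WT. Subunit joining is driven by Eif5b, which differed by -0.06 ± 0.17 on its brighter probe set. Eif2a, an alternative carrier of initiator tRNA, differed by -0.12 ± 0.18.

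Eif2s2, the beta subunit of eIF2, was read by probe sets that disagreed. Its dim probe set had 16.2 and 25.3 in KO, against 4.21 and 0.878 in WT, a log2 fold change of 1.06 ± 0.26 (limma adjusted p = 0.803). The brighter one had 111 and 139 in KO and 172 and 118 in WT (-0.18 ± 0.26). Only the dim set kept the genotypes apart. Its WT readings and its KO replicate 1 reading lay under the first quartile of the arrays, which was 18.1 to 19.7 units. The scanning factor eIF1A was likewise read in opposite directions. One probe set of Eif1ax had 740 and 637 in KO, against 580 and 603 in WT (0.21 ± 0.12), with all KO values above all WT values. The other had 518 and 382 in KO and 504 and 528 in WT (-0.21 ± 0.17). Eif2d, which can deliver tRNA without eIF2, had 155 and 154 in KO against 152 and 124 in WT on its brighter set (0.15 ± 0.21). Its dimmer set had 32.4 and 41.5 in KO and 24.7 and 69.4 in WT (-0.16 ± 0.47). The autosomal Eif1a, close in sequence to Eif1ax, differed by -0.11 ± 0.28 and 0.07 ± 0.36 on its probe sets.

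**Figure D3:**
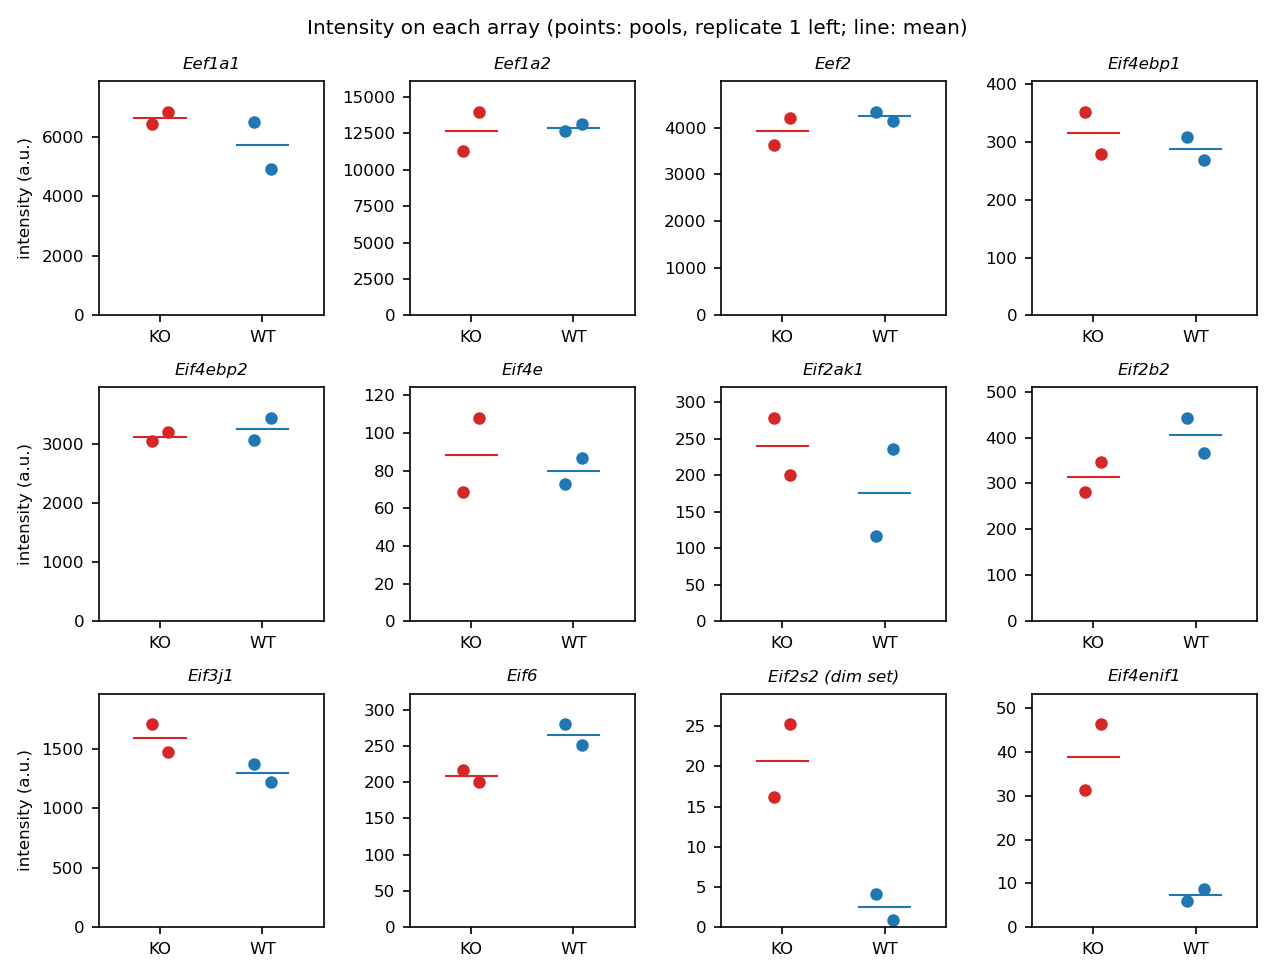
Intensity (arbitrary units, axes from 0) of 12 factor probe sets on each array, KO at the left and WT at the right of each panel, replicate 1 at the left of each pair and a line at the mean. Eif6 and Eif2b2 lie lower and Eif3j1 higher in both KO pools, while Eef1a1, Eef1a2 and Eef2 overlap between genotypes.

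The guanine nucleotide exchange factor eIF2B recharges eIF2 with GTP and is inhibited by eIF2 that the stress kinases have phosphorylated. Of its 4 measured subunit genes, 3 read higher and 1 lower in KO, and 0 passed (limma). The beta subunit gene Eif2b2 read 280.4 and 346 in KO, against 442 and 367 in WT, so KO stood below WT without overlap (-0.36 ± 0.17, adjusted p = 0.908). The catalytic epsilon subunit, Eif2b5, was read by probe sets of unequal outcome. Its brighter set gave 517 and 490 in KO and 517 and 488 in WT, a difference of 0.0021 with a 95% interval of -0.28 to 0.28. Its other set gave 257 and 187 in KO, against 294 and 287 in WT (-0.39 ± 0.19), with KO lower and no overlap. Eif2b1 and Eif2b4, for the alpha and delta subunits, differed by 0.17 ± 0.16 and 0.10 ± 0.14.

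The kinases that phosphorylate eIF2 did not separate the genotypes. Eif2ak1, the heme-regulated kinase, read 278 and 201 in KO and 117 and 235 in WT (0.47 ± 0.33). The low value was that of WT replicate 1, and the difference was 0.0073 without it and 0.94 without WT replicate 2. The RNA-activated kinase Eif2ak2 read 36.4 and 58.3 in KO, against 19.6 and 42.8 in WT (0.47 ± 0.42), with WT replicate 1 again lowest. That difference was 0.088 without WT replicate 1, 0.84 without WT replicate 2 and 0.21 without KO replicate 2. Eif2ak3, the kinase of endoplasmic reticulum stress, had 26.7 and 21.4 in KO and 26.6 and 22.8 in WT. Eif2ak4, the amino acid sensor, had 38.8 and 31.5 in KO and 41.8 and 29.7 in WT. Apart from Eif2ak1 these probe sets were dimmer than the median probe set. Their 95% intervals ran from -0.81 to 0.76 for Eif2ak3 and from -0.87 to 0.85 for Eif2ak4, and passed a 2-fold difference for Eif2ak1 and Eif2ak2, so these arrays bound them loosely.

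The large scaffold eIF3 holds the initiation complex together. Of 10 measured subunit genes, 3 read higher and 7 lower in KO, with a median of -0.05, and 0 passed (limma). The loosely held subunit gene Eif3j1 read 1706 and 1473 in KO, against 1372 and 1222 in WT, all KO values being above all WT values (0.29 ± 0.12, adjusted p = 0.908). Its unadjusted p in the limma fit was 0.0527, the smallest among eIF3 probe sets. Eif3m lay the other way without overlap, at 727 and 707 in KO and 805 and 840 in WT (-0.19 ± 0.10). The core subunit genes Eif3a, Eif3b and Eif3c differed by -0.05 ± 0.17, -0.13 ± 0.15 and -0.08 ± 0.14 on their brightest sets. Eif3d, which can bind caps itself, differed by 0.08 ± 0.12, and Eif3e, Eif3k and Eif3l by -0.06 ± 0.18, -0.02 ± 0.12 and 0.06 ± 0.11. Eif3f, a target of the atrophy ubiquitin ligase MAFbx in muscle, was dimmer than the median probe set at 85.6 and 38.7 in KO, against 54.8 and 77.9 in WT.

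Cap recognition and unwinding are the work of eIF4E, the eIF4A helicases and their scaffold and helpers. Of 8 genes, 4 read higher and 4 lower in KO, and 0 passed (limma). Eif4e, the cap-binding protein, read 68.8 and 108 in KO and 72.7 and 86.7 in WT (0.11 ± 0.32). A very dim second set read 3.90 and 8.93 in KO, against 4.12 and 6.73 in WT. Neither set separated the genotypes. Its relative Eif4e2, which occupies caps without recruiting ribosomes, differed by -0.36 ± 0.29. The helicase differences rested on 1 pool. Eif4a1 read 165 and 291 in KO, against 162 and 139 in WT (0.51 ± 0.28), the difference coming from KO replicate 2 and shrinking to 0.13 without it. Eif4a2 read 1757 and 1262 in KO, against 1721 and 1754 in WT (-0.22 ± 0.16), and the same KO pool made it differ, with 0.02 left without that pool. The scaffold-like genes Eif4g2 and Eif4g3 differed by 0.16 ± 0.16 and -0.12 ± 0.12, the second lower in KO without overlap.

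The helicase helpers were mixed. Eif4h was dim, at 28.1 and 19.8 in KO and 9.67 and 10.9 in WT (0.64 ± 0.29, adjusted p = 0.908), with KO above WT on both arrays. Eif4b was read by 4 probe sets. The brightest gave 1039 and 1099 in KO and 1025 and 1191 in WT (-0.05 ± 0.12). The second gave 287 and 262 in KO, against 331 and 298 in WT (-0.19 ± 0.15), lower in KO without overlap. The dim ones gave 7.72 and 5.34 in KO against 18.3 and 6.90 in WT, and 7.62 and 4.52 in KO against 4.26 and 6.33 in WT. The other 3 sets of Eif4b overlapped between genotypes.

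The 4E-BP proteins hold eIF4E away from the scaffold until mTORC1 phosphorylates them. Eif4ebp1 read 352 and 279 in KO and 308 and 269 in WT (0.12 ± 0.17). Eif4ebp2 read 3044 and 3193 in KO, against 3065 and 3434 in WT (-0.06 ± 0.11), with a 95% interval of -0.32 to 0.20. Both genes overlapped between genotypes on these sets. A second set of Eif4ebp2 gave 81.7 and 85.8 in KO, against 91.2 and 93.7 in WT (-0.12 ± 0.26), lower in KO without overlap. The dimmest gave 7.98 and 106 in KO and 72.2 and 115 in WT. That difference, -1.04 ± 0.78, came from KO replicate 1, and it was 0.19 without that array.

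Eif4enif1, whose product shuttles eIF4E into the nucleus and to P-bodies, had the largest log2 fold change among the 66 probe sets on the log2(intensity + 14) scale. It read 31.3 and 46.3 in KO, against 5.92 and 8.81 in WT (mean 38.8 ± 10.6 in KO and 7.36 ± 2.04 in WT, SD, n = 2 each). On that scale, which understates dim genes, the difference was 1.29 ± 0.32 (limma adjusted p = 0.803, unadjusted p = 0.00638). Both WT values lay under the first quartile of the arrays, and the gene has a single probe set here. Leaving out 1 array at a time gave 1.09 to 1.5. The dim Eif2s2 set was the other probe set with an unadjusted p under 0.05.

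Late assembly is guarded by Eif6, which keeps the large ribosomal subunit from joining early. It read 216 and 199.8 in KO, against 280.1 and 251 in WT, lower in both KO pools (-0.33 ± 0.16, adjusted p = 0.908). Its difference stayed between -0.41 and -0.26 when single arrays were left out. Eif5a, the hypusine-bearing factor that helps ribosomes through runs of proline, was dim at 26.5 and 6.602 in KO and 24.0 and 14.2 in WT.

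Of 8 elongation genes, 4 read higher and 4 lower in KO, and 0 passed (limma). The main factors of the elongation cycle overlapped between genotypes. Eef1a2, the muscle and nerve isoform of eEF1A, read 11302 and 13952.5 in KO and 12678 and 13098 in WT (mean 12627 ± 1874.5 in KO and 12888 ± 296 in WT, SD, n = 2 each). The log2 fold change was -0.04, with a 95% interval of -0.39 to 0.31. Eef1a1, the ubiquitous isoform, read 6422 and 6823 in KO, against 6501 and 4911 in WT (0.23 ± 0.15). WT replicate 2 was the low value for Eef1a1, and the difference was 0.026 without it and 0.43 without WT replicate 1. Eef2, the translocation factor, read 3632 and 4201 in KO and 4330.0 and 4146 in WT (-0.12 ± 0.11). Its inhibitory kinase, Eef2k, read 55.5 and 74.1 in KO, against 72.5 and 87.1 in WT (-0.26 ± 0.31). Both genes overlapped between genotypes.

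The exchange complex that recharges eEF1A was less even. Eef1b2 gave 109 and 141 in KO, against 43.8 and 105 in WT, on its brighter set (0.73 ± 0.40, adjusted p = 0.908). Its dimmer set gave 5.98 and 43.6 in KO and 28.0 and 34.8 in WT (-0.42 ± 0.54). Only the brighter one kept the genotypes apart, and WT replicate 1 was its lowest value. The difference was 0.21 without WT replicate 1 and 1.25 without WT replicate 2. Eef1d read 998 and 1193 in KO, against 1231 and 1214 in WT (-0.16 ± 0.12), lower in KO without overlap. Eef1g, another subunit, was at 4.62 and 2.82 in KO and 1.34 and 1.59 in WT, near the bottom of the scale. Eef1akmt1, a methyltransferase that modifies eEF1A, differed by 0.07 ± 0.18.

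**Figure D4:**
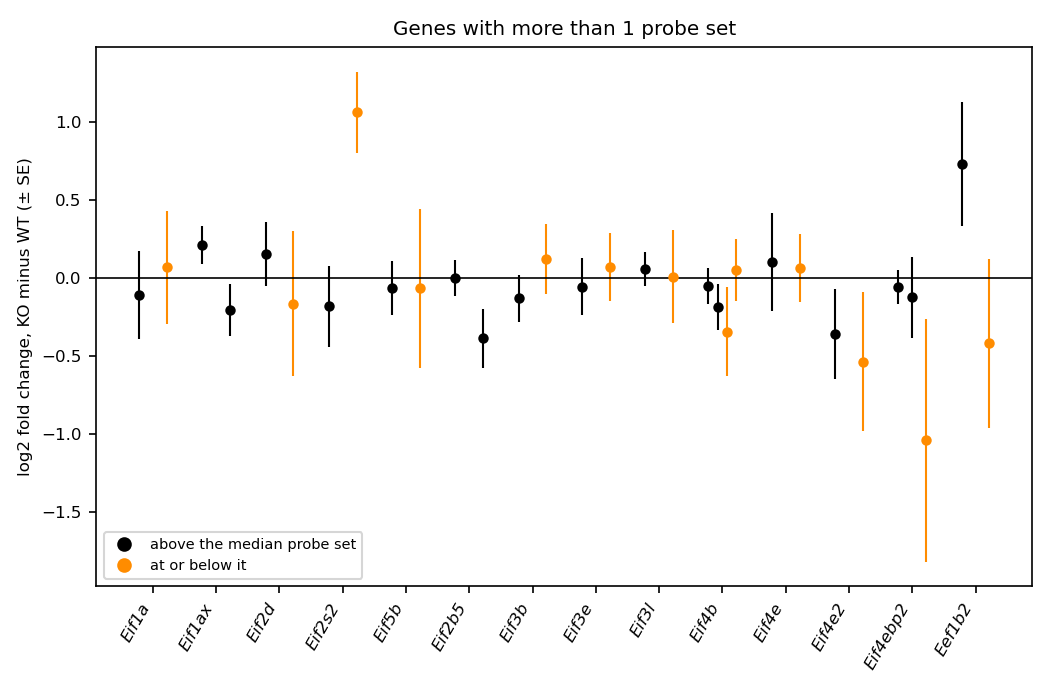
Log2 fold change (KO minus WT) ± SE of every probe set of the 14 factor genes that have more than 1, in black above and orange at or below the median probe set. In 9 of the 14 the sets lie on both sides of 0, as for Eif2s2 at 1.06 and -0.18. The like share of other genes was not counted.

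Agreement among probe sets of a gene could be checked for 14 of the 49 genes, which had 31 probe sets between them. In 9 of the 14 the sets disagreed in sign, and in 6 of these (Eif1ax, Eif2d, Eif2s2, Eif2b5, Eif4b and Eef1b2) 1 set separated the genotypes. How often the sets of other genes disagree in sign was not counted, so the 9 are not a result about these factors. Of all single probe sets 34.6% separated the genotypes, which is not a like measure, because a gene with several sets has more occasions to separate. The other 35 genes rested on 1 probe set. By array, the median deviation of the 45 brighter factor probe sets from their own means was 0.02 and -0.03 on the log2 scale in KO and 0.04 and 0.04 in WT. KO replicate 1 was the highest array for 14 and the lowest for 10 of the 45, and KO replicate 2 for 10 and 15. WT replicate 1 was the highest for 11 and the lowest for 9, and WT replicate 2 for 10 and 11. No array was highest for most of the factors or lowest for most of them.

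Genes that act with the factors were read from lists of related functions, 1 probe set per gene. The lists were chosen with earlier results of these data known. Genes of the signalling from mTORC1 and the MNK kinases to translation read mostly lower: of 16 measured genes, 15 read lower in KO and 1 higher. The list holds both activators and inhibitors of mTORC1, and mRNA levels do not measure signalling, so this count gives no direction of pathway activity. The list's median log2 fold change was -0.19, against 50.8% of genes lower and a median of -0.0046 over all genes. None passed (limma, smallest adjusted p = 0.803), and 3 had an unadjusted p under 0.05, where 5.39% of all genes did. Of these 3, Akt1s1 and Rragd read lower in KO and Rps6ka3 higher. Without overlap, 7 were lower in KO, where 18.2% of all genes were. Akt1s1, an inhibitory subunit of mTORC1, read 670 and 642 in KO, against 819 and 896 in WT (-0.38 ± 0.11). Rragd, a GTPase that brings mTORC1 to lysosomes, read 190.3 and 212 in KO and 267 and 276 in WT (-0.41 ± 0.16). Lamtor1, the lysosomal anchor of that GTPase, read 458 and 492 in KO, against 581 and 572 in WT (-0.27 ± 0.11). Mknk2, a kinase of eIF4E, read 1437 and 1483 in KO and 1656 and 1729 in WT (-0.21 ± 0.10), with -0.09 ± 0.20 on its other set. The stress-induced mTORC1 inhibitor Ddit4 differed by -0.49 ± 0.25. Mtor itself, at 420 and 408 in KO and 372 and 473 in WT, did not separate the genotypes, nor did its other set (0.48 ± 0.37). The 1 higher gene, Rps6ka3, was dim, at 14.2 and 12.2 in KO, against 2.82 and 1.32 in WT. All of these values lay under the first quartile of the arrays. Rragd, Lamtor1, Mknk2, Ddit4 and Mtor were picked for description after their values were seen. The count of lower genes without single arrays was added after the data were seen. It was 11 of 16 without KO replicate 1 (median -0.09) and 11 without WT replicate 2 (median -0.17). It was 14 without either other array. KO replicate 1 had the highest pancreas sum and WT replicate 2 the highest liver sum. The part of those markers here was not tested.

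**Figure D5:**
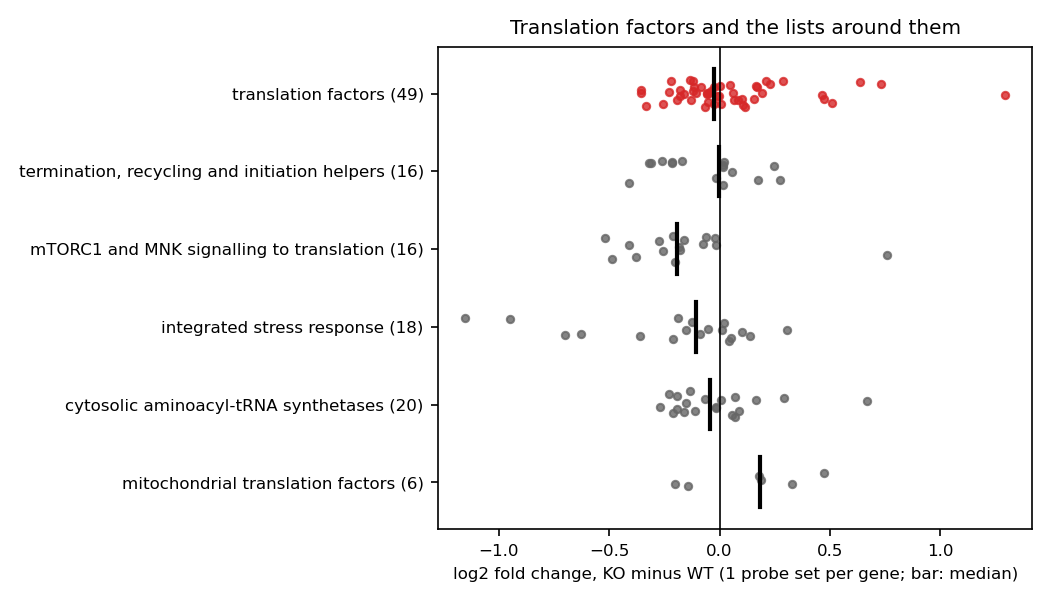
Log2 fold change (KO minus WT) of each gene, 1 probe set per gene, for the translation factors (red) and 5 lists around them (grey), with gene numbers in brackets and a bar at the median. The mTORC1 and MNK list lies left of 0 apart from Rps6ka3 at 0.76, while the factors straddle 0.

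In the other lists the directions were mixed. Termination, recycling and initiation helpers were 8 higher and 8 lower (16 genes, median -0.0007). Among them the poly(A)-binding protein Pabpc1 read 863 and 975 in KO, against 1146 and 1139 in WT (-0.31 ± 0.11, adjusted p = 0.846). The ribosome recycling factor Abce1 read 622 and 608 in KO and 520.0 and 513 in WT (0.25 ± 0.11). Genes of the integrated stress response, which follows eIF2 phosphorylation, were 7 higher and 11 lower (18 genes, median -0.11). Of the 18, 3 had an unadjusted p under 0.05 (limma), where 5.39% of all genes did. The arrays did not overlap for 5 of the 18, where 34.6% of all genes were separated. Of these 5, 4 were lower in KO, as 18.2% of all genes were. The main effector of this response, Atf4, picked after its values were seen, read 1959 and 2251 in KO and 1968 and 2105 in WT (0.04). Vldlr differed by -0.63 ± 0.21, and by -0.42 ± 0.18 on its other set. Impact, an inhibitor of the kinase GCN2, was dim and differed by -0.95 ± 0.35. The third gene of the list with an unadjusted p under 0.05 was Atf3, a stress-induced transcription factor. It read 77.3 and 119.8 in KO, against 179 and 153 in WT (-0.70 ± 0.27, limma adjusted p = 0.865), lower in KO without overlap. Its other sets differed by -0.20 ± 0.37 and -0.01 ± 0.17. The largest difference of the list was that of Mthfd2, an enzyme of mitochondrial folate metabolism, at 17.8 and 79.7 in KO and 125 and 91.7 in WT (-1.15 ± 0.54), with no overlap. Its dim second set differed by 0.01 ± 0.15. Atf3 and Mthfd2 were picked after their values were seen. That list's median was -0.03 without WT replicate 1 and -0.17 without KO replicate 1. Cytosolic aminoacyl-tRNA synthetases were 8 higher and 12 lower (20 genes, median -0.04), with Qars at 0.29 ± 0.16 and the scaffold gene Aimp2 at 0.17 ± 0.11. Mitochondrial translation factors were 4 higher and 2 lower (6 genes, median 0.18), with the elongation factor Tufm at -0.20 ± 0.16 (0.13 ± 0.28 on its other set) and the initiation factor Mtif2 at 0.19 ± 0.15. In these lists 0 genes passed (limma).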

How the data were processed

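The deposited table holds 1 linear intensity per probe set and array (Affymetrix U74Av2). Per the labels' protocols, RNA of 2 mice was pooled for each of the 4 arrays. The sources used here do not state how the authors summarised or scaled them, nor a genome build. Deposited intensities had equal means (200.2) after trimming 2% at each end, and medians of 67.6 to 71.2, so no scaling was added. Of 12488 probe sets, 66 Affymetrix controls were left out. With no filter, log2(intensity + 14) was modelled in limma 3.58.1 under R 4.3.3, with 20% of the median intensity as pseudocount (genotype term, eBayes with intensity trend, two-sided, Benjamini-Hochberg over 12422 probe sets, threshold 0.05). The fit was also run on simulated data with planted differences of 2-fold or more, which does not test smaller ones such as most reported here. Errors are standard errors from this fit unless called SD. Symbols came from the platform annotation (10833 probe sets with 1 symbol, 396 with several, 1193 with none), and GRCm38.p6 from RefSeq held all 66 members' gene IDs. Array number limits the precision.

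Per-array values are given for probe sets with unadjusted p under 0.05, the smallest p in each role, sets of genes that disagree in sign with 1 separating the genotypes, and Eef1a1, Eef1a2, Eef2, Eif4e, Eif4ebp1, Eif4ebp2 and the Eif2ak genes. From each pathway list the 2 genes with the smallest unadjusted p are named. Other values were chosen after they were seen. The members, lists and rules were chosen with earlier results of these data known. Same-numbered arrays did not deviate together (correlation 0.0034 of deviations across probe sets), so replicate numbers were not used for pairing. Alternatives tried were other pseudocounts, a level filter, quantile and median scaling, no trend, a replicate block and leaving out each array.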

Additional observations from a re-analysis of the deposited data

How the results depend on the processing

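With limma, 0 probe sets passed adjustment, among the factors and over all probe sets, under each of the 11 alternatives, although 345 to 831 of all probe sets had an unadjusted p under 0.05. The median log2 fold change of the factors was -0.03, between -0.05 and -0.03 under other pseudocounts, the level filter, quantile or median scaling and no trend, and between -0.034 and 0.021 when single arrays were left out (0.021 without KO replicate 2, 0.0024 without WT replicate 2). Of the factors, 0 to 6 had an unadjusted p under 0.05, against 2 as reported: 0 with the level filter, 6 without KO replicate 1 or KO replicate 2, and 4 without WT replicate 1. With the replicate number as a block, the median log2 fold change of the factors was -0.03 and no adjusted call changed. In that limma fit, 740 instead of 674 of all probe sets had an unadjusted p under 0.05. Of 33 probe sets of 22 genes, 1 turned sign when arrays were centred on their medians (Eif2b5, brighter set, -0.0087), and 16 did so when single arrays were left out. Their lowest and highest values were -0.19 and 0.11 for Eef1a2, -1.18 and 0.35 for the dimmer Eef1b2 set, -0.42 and 0.0061 for the second Eif1ax set, -0.12 and 0.074 for Eif2ak3, and -0.19 and 0.17 for Eif2ak4. They were -0.039 and 0.043 for the brighter Eif2b5 set, -0.72 and 0.39 for the dimmer Eif2d set, -0.43 and 0.066 for the brighter Eif2s2 set, -0.15 and 0.059 for the brightest Eif4b set, and -0.057 and 0.17 for the dimmest. For Eif4e they were -0.17 and 0.38 on the brighter set and -0.11 and 0.24 on the dimmer. They were -0.044 and 0.28 for Eif4ebp1, -0.14 and 0.024 for the brightest and -2.26 and 0.19 for the dimmest Eif4ebp2 set, and -0.67 and 0.31 for Eif5a. The cause was not tested. The pseudocount set the size of dim differences: at 4 times its value Eif4enif1 differed by 0.58 and the dim Eif2s2 set by 0.39, and at 0.25 of it by 1.95 and 2.03. A lone array left in a genotype was assumed to vary like the other genotype.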

Other observations

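One further probe set named a translation factor together with other genes, Eif4a3 with its copy Eif4a3l1 and Gm5576, and was therefore not counted among the 66. Eif4a3 is a helicase of the exon junction complex. The probe set read 757 and 759 in KO, against 721 and 663 in WT, all KO values being above all WT values (log2 fold change 0.13 ± 0.11, SE). Which of the 3 genes gave the signal cannot be told apart here.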
